A study of Mus musculus with 10 samples.

Results

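The interferon regulatory factors (Irf) are transcription factors that share an N-terminal DNA-binding domain and bind GAAA repeats in the promoters of interferon-responsive genes. In a virus-infected or stimulated cell, sensors in the cytosol and in endosomes activate kinases that phosphorylate Irf3, Irf5 and Irf7, which then drive transcription of type I interferons. Interferon released by one cell acts on receptors of the next, where Irf9 and its partners switch on antiviral genes, Irf7 among them, while Irf1 and Irf2 compete for many of the same sites and Irf4 and Irf8 direct the development of lymphocytes, monocytes and dendritic cells. In blood these genes are read out together from leukocytes, platelets and immature red cells.

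The genes described here are the 8 interferon regulatory factors named by symbol in the table of whole-blood RNA sequencing values, Irf1, Irf2, Irf3, Irf4, Irf5, Irf7, Irf8 and Irf9, out of 10431 genes in all. All 8 passed the filter on low values, as did 10429 genes of the whole table. The samples were blood of 10 female C57BL/6J mice, bought at 9 weeks of age, with no transgene or deleted gene. The 5 mice that later gained the most weight of 40 formed the weight gain prone cohort (AIWG-P, mice P1, P3, P5, P7 and P8), and the 5 that gained the least formed the resistant cohort (AIWG-R, mice R1, R2, R4, R8 and R9). Both cohorts received the same 45% high-fat diet compounded with 54 mg/kg olanzapine, an antipsychotic, for 14 days. According to the study's methods the blood was drawn before that diet, whereas the sample labels name the diet as the treatment and leave the time of sampling open, so AIWG describes what the mice did afterwards and neither cohort is an untreated control of the other.

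The values are the authors' normalized values per gene. In each mouse they were whole multiples, within 0.02, of a fixed step. The multiples lay between 203 and 1976 for the 8 Irf genes and added up over all genes to 23810100 in the mouse with the lowest total and 32293920 in that with the highest; that a step is 1 read was not established. Globin genes made up 75.0% of the summed values in R9 and 87.5% in P8, the lowest and highest of the 10 mice. Of 20 red cell membrane genes, 13 were higher in AIWG-P (unadjusted limma p below 0.05 and a ratio more than 25% above 1) and 0 lower, beside 4.06 and 3.23% of all genes, and the mean log2(value + 1) of these genes was 7.89 to 8.47 in AIWG-P and 6.96 to 8.15 in AIWG-R. Fewer cells of a type and less RNA per cell cannot be told apart in such blood samples. Every listed monocyte, B cell, T cell, NK cell and platelet marker was measured, as were 10 of 13 neutrophil and 4 of 7 plasma cell markers. The neutrophil genes Ly6g, Ltf and Camp and the plasma cell genes Jchain, Tnfrsf17 and Derl3 were not among the genes of the table used here. The same holds for the plasmacytoid dendritic cell genes Siglech, Klk1, Cox6a2 and Smim5 and the conventional dendritic cell genes Zbtb46, Clec9a and Xcr1.

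The level of each member was first compared with that of the others, after division by the length of its longest protein-coding transcript in GENCODE vM21, since the deposited values are not per length. Irf7 had the highest mean level, 706 ± 264 per kb (SD, n = 10 mice), followed by Irf1 with 361 ± 14.4, Irf5 with 331 ± 31.0 and Irf8 with 321 ± 27.9. Irf2 followed with 254 ± 14.6, Irf3 with 214 ± 22.4 and Irf9 with 182 ± 15.5, and Irf4, a factor of activated lymphocytes and plasma cells, was lowest with 88.8 ± 12.2. Irf7 exceeded Irf1 in 9 of 10 mice, the exception being R9. The ranges over the 10 mice overlapped between all neighbours in this order except Irf9 and Irf4. Irf8 exceeded Irf2, and Irf2 exceeded Irf3, within each of the 10 mice, whereas Irf5 exceeded Irf8 in 6 of them. The order depends on the transcript taken. With the next longest coding transcript of each gene, Irf8 (2270 bases in place of 2847) would be at 403 per kb, Irf7 (1916 in place of 2237) at 824 and Irf2 (720 in place of 2497) at 881, so that the first place of Irf7, the place of Irf2 and the order of Irf1, Irf5 and Irf8 hold for the longest transcripts only.

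The members also differed in how much they varied between mice. The within-cohort SD of Irf7 was 0.47 on the log2 scale, at percentile 94.0 of all genes tested, and its highest value was 4.11 times its lowest. Irf1 and Irf2 had within-cohort SDs of 0.057 and 0.074, at percentiles 0.56 and 1.93 of all genes, so they were among the steadiest transcripts in the table. Among the 1000 genes closest in level, the percentiles were 97.2 for Irf7, 2.7 for Irf1 and 5.5 for Irf2. Irf9, Irf5, Irf8, Irf3 and Irf4 lay in between, at SDs of 0.11 to 0.21.

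**Figure D1:**
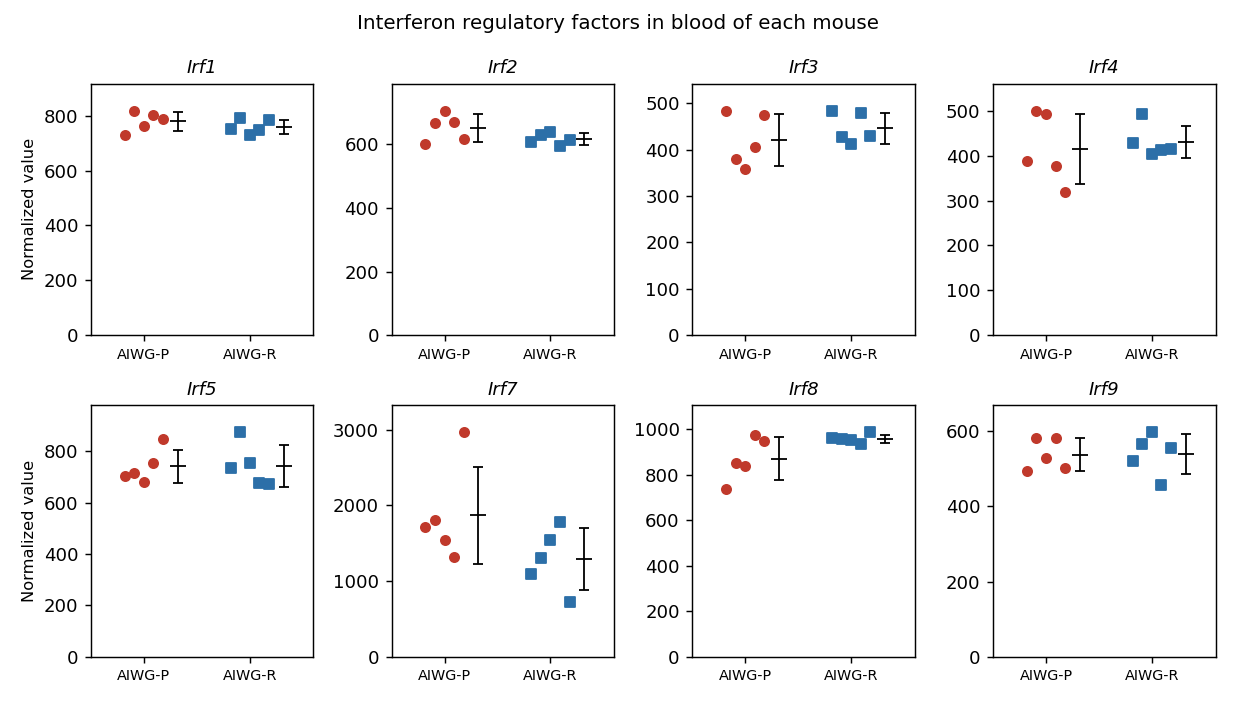
Normalized value of the 8 interferon regulatory factors in the blood of each mouse (circles AIWG-P, squares AIWG-R, n = 5 each), with the mean and SD of each cohort as a black bar; each panel starts at 0. Irf7 spreads from 721.8 to 2965, whereas Irf1 stays between 729.6 and 819.4.

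To ask whether any member differed between the cohorts, each was tested with limma in a fit over all 10429 genes, and a call required both an unadjusted p below 0.05 and a ratio of the cohorts more than 25% above 1 or under the inverse of that. Irf7 was the only one of the 8 members that passed, with a higher level in AIWG-P. Over all genes tested, 760 (7.29%) passed both thresholds, 423 (4.06%) higher and 337 (3.23%) lower in AIWG-P, and 0 had an adjusted p under 0.05 although 1340 (12.8%) had an unadjusted p under 0.05. With 8 members, 1 call is near this background and is not a result about the family. No member separated the cohorts completely, against 266 genes (2.55%) of the table.

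Irf7 is the factor that sustains type I interferon production and is itself induced by interferon. Its values were 1713 in P1, 1801 in P3, 1544 in P5, 1317 in P7 and 2965 in P8, and 1091 in R1, 1304 in R2, 1547 in R4, 1784 in R8 and 721.8 in R9. P3 and P8 lay above every AIWG-R mouse and R1, R2 and R9 below every AIWG-P mouse, while the other mice overlapped. The cohort means were 1868 ± 640 in AIWG-P and 1290 ± 410 in AIWG-R (SD, n = 5), a 1.46-fold difference, or 0.54 on the log2(value + 1) scale (SE 0.24, 95% interval 0.02 to 1.07). The limma p was 0.0435 and the adjusted p 0.382, and the exact two-sided permutation test of the same difference gave p = 0.103, where 5 against 5 mice can reach 0.00794. Without P8 the log2 difference was 0.36 (limma adjusted p = 0.565), without R9 0.35 (adjusted p = 0.650) and without both 0.17 (adjusted p = 0.804), each short of a call. The call was likewise lost, with differences of 0.50 to 0.56, when P1, P3, R1 or R2 was left out. Among the mice with label number 4 (P1, P3 and P5 against R2, R4, R8 and R9) the log2 difference was 0.41 (limma adjusted p = 0.752), and label number 3 has only 1 AIWG-R mouse.

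The promoter of Irf7 is shown because it is the member whose level varied most. The 250 bases before its start site, from RefSeq promoters on GRCm38.p6 (chr7:141266425-141266674, minus strand), read 5′ to 3′:
Irf7 promoter: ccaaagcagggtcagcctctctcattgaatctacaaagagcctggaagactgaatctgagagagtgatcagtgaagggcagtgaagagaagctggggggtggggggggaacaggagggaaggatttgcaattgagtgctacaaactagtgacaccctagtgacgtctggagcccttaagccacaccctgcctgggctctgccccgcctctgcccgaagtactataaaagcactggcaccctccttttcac
Neither of the letter patterns searched on both strands, GAAA followed after any 2 bases by a further GAAA (a paired repeat as in interferon-stimulated response elements) and TTCNNNGAA (the pattern of gamma-activated sites), occurs in this window.

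Irf7 moved with the red cell genes across the mice. Its Pearson r with the mean of the 20 red cell membrane genes was 0.81 over the 10 mice (permutation p = 0.00597, adjusted p = 0.143 over 48 relations between members and cell type lists, Spearman rho 0.68, permutation p = 0.0350). The correlation was 0.74 without R9 and R4, the mice farthest from the median of the red cell list, 0.72 with the cohort means removed, and 0.88 among the mice with label number 4. Its r with the globin percentage of the summed values was 0.83 over the 10 mice, which share normalization and depth with both measures. With the first principal component of all genes, which held 38.4% of the variance, the correlation of Irf7 was 0.74 in size. Once the red cell list mean was added to the fit, the log2 difference of Irf7 between the cohorts was 0.02 (SE 0.23, limma adjusted p = 0.997). The red cell list itself differed between the cohorts, so the part of either in the result cannot be told apart.

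**Figure D2:**
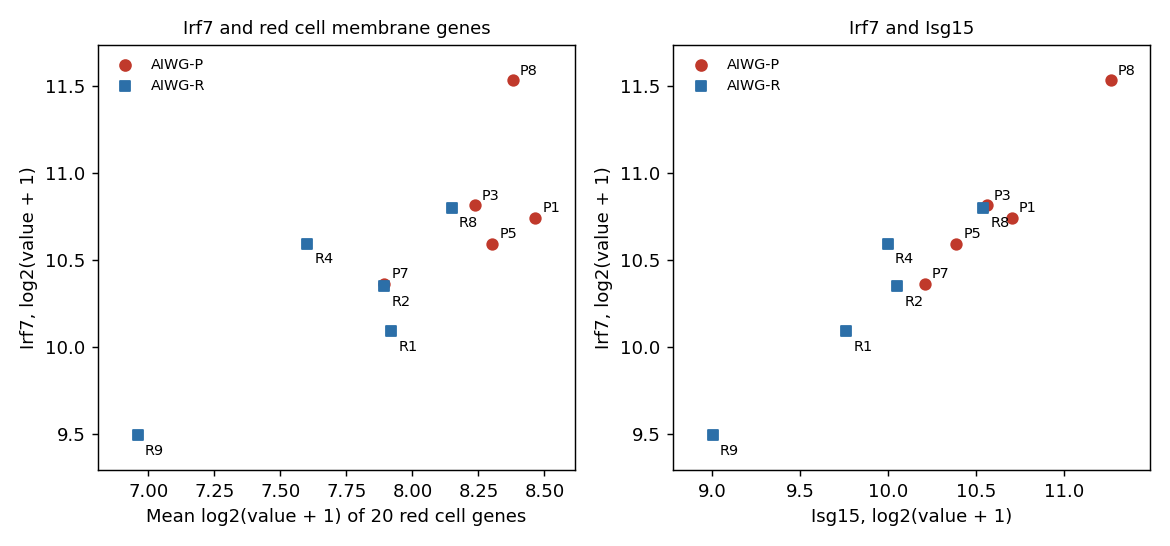
Irf7 as log2(value + 1) in each mouse against the mean log2(value + 1) of 20 red cell membrane genes (left) and against Isg15 (right); circles are AIWG-P and squares AIWG-R mice. R9 is lowest on all 3 measures and P8 is highest for Irf7 and Isg15, with Pearson r of 0.81 and 0.97 over the 10 mice.

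Isg15, the ubiquitin-like protein that interferon induces, was the gene of the whole table whose pattern was most like Irf7, with a Pearson r of 0.97 over the 10 mice, Spearman rho 0.89 and r of 0.97 with the cohort means removed. Isg15 was 1667 in P1, 1511 in P3, 1339 in P5, 1182 in P7 and 2463 in P8, and 866.9 in R1, 1061 in R2, 1022 in R4, 1488 in R8 and 512.3 in R9. The ratio of Irf7 to Isg15 was 1.03 to 1.20 in AIWG-P and 1.20 to 1.51 in AIWG-R, while Isg15 itself spanned 512.3 to 2463. For this ratio R8 (1.199) lay below P8 (1.203), and the cohorts did not otherwise overlap. Next came Ppp1r15a, the phosphatase subunit that ends the integrated stress response, with r = 0.95, and Dnajb1, an Hsp40 co-chaperone, with r = 0.94. The promoter of Isg15 is shown beside that of Irf7 because its window holds 3 matches of the paired GAAA repeat, each of which overlaps the next. They begin 78, 72 and 66 bases before the start site, and a stretch around them (GRCm38.p6 chr4:156200856-156200915, minus strand) is printed with the matches in capitals:
Isg15 promoter: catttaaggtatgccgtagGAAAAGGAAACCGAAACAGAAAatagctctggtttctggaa
Of all 27025 genes with a promoter window, 936 (3.46%) hold the paired GAAA repeat in the 250 bases before the start, compared with 9 of 24 type I interferon target genes and 9 of 19 Irf1 and interferon gamma target genes. A match describes letters only.

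Irf1 and Irf2 bind similar sites, Irf1 mostly as an activator induced by interferon gamma and Irf2 mostly as its antagonist. Irf1 was 731.3, 819.4, 762.7, 803.8 and 788.7 in P1, P3, P5, P7 and P8, and 751.0, 791.2, 729.6, 748.4 and 783.8 in R1, R2, R4, R8 and R9. P3 and P7 lay above every AIWG-R mouse and R4 below every AIWG-P mouse, while the other mice overlapped, and the log2 difference was 0.04 (95% interval -0.11 to 0.18, limma p = 0.585, exact permutation p = 0.325). Irf2 was 600.7, 667.7, 706.4, 671.1 and 615.9 in the AIWG-P mice, in the same order, and 608.3, 628.5, 639.6, 594.4 and 613.3 in the AIWG-R mice. P3, P5 and P7 lay above every AIWG-R mouse, but the log2 difference was 0.08 (95% interval -0.07 to 0.23, limma p = 0.289, exact permutation p = 0.127). For both genes the interval leaves out a difference of the size a call required.

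The promoters of Irf1, Irf2 and Irf8 are shown because these are the 3 of 8 members with TTCNNNGAA in the 250 bases before a start site, a pattern found in 2197 (8.13%) of 27025 genes with a window. Irf2 also holds the paired GAAA repeat, the only member to do so. Matches are in capitals in these stretches of GRCm38.p6, all on the plus strand (Irf1 chr11:53769899-53769957, Irf2 chr8:46739496-46739554, Irf8 chr8:120736162-120736220):
Irf1 promoter: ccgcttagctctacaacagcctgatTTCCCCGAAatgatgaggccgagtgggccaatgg
Irf2 promoter: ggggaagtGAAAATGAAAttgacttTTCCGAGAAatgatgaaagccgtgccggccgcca
Irf8 promoter: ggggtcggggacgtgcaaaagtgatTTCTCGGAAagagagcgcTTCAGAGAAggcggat
The Irf1 match begins 90 bases before the start, the Irf2 matches begin 241 (paired GAAA repeat) and 224 (TTCNNNGAA) bases before it, and the Irf8 matches begin 171 and 153 bases before it. No match of one pattern overlapped a match of the other. The upstream windows of Irf3, Irf4, Irf5, Irf7 and Irf9 hold neither pattern, and Irf1, Irf8 and Irf9 have 2 windows each in the table.

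Irf3 is the constitutively expressed factor that Tbk1 phosphorylates early in infection. Its values were 484.7 in P1, 380.8 in P3, 359.5 in P5, 405.8 in P7 and 476.0 in P8, and 483.9 in R1, 427.3 in R2, 411.6 in R4, 479.4 in R8 and 428.9 in R9. P3, P5 and P7 lay below every AIWG-R mouse, and P1 lay above all of them. The log2 difference was -0.09 (95% interval -0.30 to 0.12, limma p = 0.381, exact permutation p = 0.333).

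Irf3 and Irf2 ran opposite to each other. The Pearson r of the log2 values was -0.93 over the 10 mice (permutation p = 5e-05, adjusted p = 0.0014 over the 28 pairs of members, Spearman rho -0.94, permutation p = 0.00015). This was the only pair of the 28 with an adjusted p under 0.05. The correlation was -0.92 without P5 and P7, -0.95 with the cohort means removed and -0.97 among the mice with label number 4. It is not the strongest opposition in the whole table. Over the 10 mice the gene most opposed to Irf2 was Akap8l (r = -0.95), and that most opposed to Irf3 was Hnrnpul1 (r = -0.94). The ratio of Irf2 to Irf3 ranged from 1.24 to 1.97 in AIWG-P and from 1.24 to 1.55 in AIWG-R. The 4 mice with the highest Irf3 were P1, P8, R1 and R8, which carry the only 2 mouse numbers that occur in both cohorts. The first 3 principal components of all genes held 38.4, 11.6 and 10.1% of the variance, and the third had the largest correlations with both genes, 0.67 for Irf2 and 0.66 for Irf3 in size. For Irf2 and Irf3 in turn, r was -0.22 and 0.24 with the total of whole steps per mouse and -0.36 and 0.55 with the globin percentage. It was 0.62 and -0.46 with monocyte markers and -0.39 and 0.59 with platelet markers (permutation adjusted p of 0.401 or more). Red cell and neutrophil genes gave the same sign for both. The next closest pair was Irf3 with Irf9, with r = -0.67 (permutation p = 0.0379, adjusted p = 0.531).

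**Figure D3:**
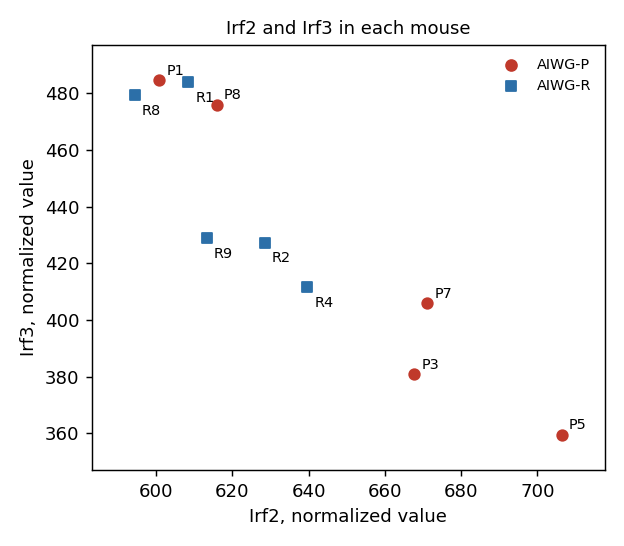
Normalized value of Irf3 against that of Irf2 in each of the 10 mice (circles AIWG-P, squares AIWG-R). P1, R1, R8 and P8 sit at the upper left and P5 at the lower right, where Irf2 is 706.4 and Irf3 359.5.

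Irf4 drives plasma cell formation and the differentiation of several T helper subsets. Its values were 389.2 in P1, 500.8 in P3, 492.3 in P5, 378.1 in P7 and 318.9 in P8, and 429.1 in R1, 492.6 in R2, 404.4 in R4, 412.2 in R8 and 414.5 in R9. P1, P7 and P8 lay below every AIWG-R mouse, with P3 at the top, so that the SD was 78.4 in AIWG-P against 35.8 in AIWG-R. The log2 difference was -0.07 (95% interval -0.33 to 0.20, limma p = 0.590, exact permutation p = 0.651). Irf4 followed the mean of 12 B cell markers with r = 0.75 (permutation p = 0.0165, adjusted p = 0.201, rho 0.60), and 14 T cell markers with r = -0.81 (permutation p = 0.0046, adjusted p = 0.143, rho -0.76). With 12 platelet markers r was -0.74 (permutation p = 0.0167, adjusted p = 0.201, rho -0.76). Leaving out the 2 mice farthest from the median of each list gave 0.31 for B cells (without R2 and P8), -0.52 for T cells and -0.49 for platelets (both without P3 and P8), so that these relations rest in part on the mice left out. The correlation of Irf4 with the first principal component of all genes was 0.78 in size, and 11.2% of all genes had r above 0.7 with Irf4. Whether the 3 list relations go beyond that component was not tested.

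Irf5, which Myd88-dependent Toll-like receptors activate in myeloid and B cells, was 704.7, 716.8, 681.4, 753.3 and 848.4 in P1, P3, P5, P7 and P8, and 732.8, 873.4, 752.8, 677.9 and 672.9 in R1, R2, R4, R8 and R9. The cohort means were 740.9 ± 65.5 and 741.9 ± 81.2 (SD, n = 5), and the log2 difference was 0.00 (95% interval -0.20 to 0.20, limma p = 0.998, exact permutation p = 0.992). P8 and R2 were the highest mice of their cohorts. The same mice were highest for the immunoglobulin kappa variable gene Igkv2-137, the gene most like Irf5 in the table (r = 0.95 over the 10 mice), with 34.6 in P8 and 33.97 in R2 and at most 23.2 elsewhere.

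Irf8 is required for monocytes and dendritic cells and is also high in B cells. Its values were 736.1 in P1, 852.1 in P3, 839.3 in P5, 974.0 in P7 and 947.4 in P8, and 960.2 in R1, 955.7 in R2, 951.4 in R4, 936.1 in R8 and 985.8 in R9. The AIWG-R mice were nearly identical, with a coefficient of variation of 1.89% against 10.9% in AIWG-P, and P1, P3 and P5 lay below all of them. The log2 difference was -0.15 (95% interval -0.33 to 0.03, limma p = 0.103, exact permutation p = 0.103). Without P7 it was -0.19 (limma adjusted p = 0.505). It was -0.24 among the mice with label number 4 (limma adjusted p = 0.520) and -0.29 with library sizes that leave out globins (limma adjusted p = 0.237), where the median of all genes lay at -0.15. In these 3 settings the unadjusted p was below 0.05 and the fold threshold was missed. Over the fits that left out 1 mouse, the unadjusted limma p of Irf8 was 0.0419 to 0.277, and it was called in none of them. Irf8 ran against the red cell membrane genes, with r = -0.64 (permutation p = 0.0585, adjusted p = 0.401) and rho -0.82 (permutation p = 0.00597, adjusted p = 0.167). With the cohort means removed r was -0.42. In a fit that included the mean of the red cell genes, the log2 difference of Irf8 was -0.07 (limma adjusted p = 0.984). Of 15 monocyte markers 12 had a positive log2 difference, with a median of 0.12. None of these 15 was called, nor any of the 8 plasmacytoid and 7 conventional dendritic cell markers measured, beside 7.29% of all genes.

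Irf9, the DNA-binding subunit of a complex that type I interferon activates, was 493.2, 582.6, 529.8, 582.0 and 501.2 in P1, P3, P5, P7 and P8, and 521.4, 566.8, 596.9, 456.6 and 555.0 in R1, R2, R4, R8 and R9. The cohorts overlapped, with means of 537.8 ± 42.9 and 539.3 ± 53.5 (SD, n = 5) and a log2 difference of -0.00 (95% interval -0.20 to 0.19, limma p = 0.983, exact permutation p = 1). Parp9, an interferon-induced gene of the type I target list, was among the 3 genes most like it, with r = 0.88, after Polr3a with 0.92 and Cyfip1 with 0.89.

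The genes most like the other members were as follows. For Irf1 they were Lyrm5, D19Bwg1357e and Tmem5 (r of 0.86 to 0.87), for Irf2 Nxpe4, Hiatl1 and Rap2b (0.90 to 0.93), for Irf3 E330020D12Rik, Sec11c and Nsun5 (0.92 to 0.95), for Irf4 Phlpp1, Rest and Arih2 (0.94 to 0.96), and for Irf8 Glmn, Pcbp4 and Qrfp (0.90 to 0.96). Dpm2 and Igkv6-17 followed Igkv2-137 for Irf5, at 0.93 and 0.90. These are the highest of 10429 genes over the 10 mice and are given as a description.

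Read assignment could blur members that overlap another gene. In GENCODE vM21, exons of Irf5 share 411 of 2905 bases with Tnpo3, those of Irf1 135 of 3976 bases with Gm17334, those of Irf3 88 of 3442 bases with Bcl2l12 and those of Irf7 45 of 3776 bases with Phrf1, all on the opposite strand, and those of Irf9 share 123 of 5386 bases with Rnf31 on the same strand. Whether reads were counted by strand is not stated in the sources used. The r of neighbour and member over the 10 mice was -0.42 for Tnpo3, -0.19 for Phrf1, 0.10 for Bcl2l12 and 0.24 for Rnf31.

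**Figure D4:**
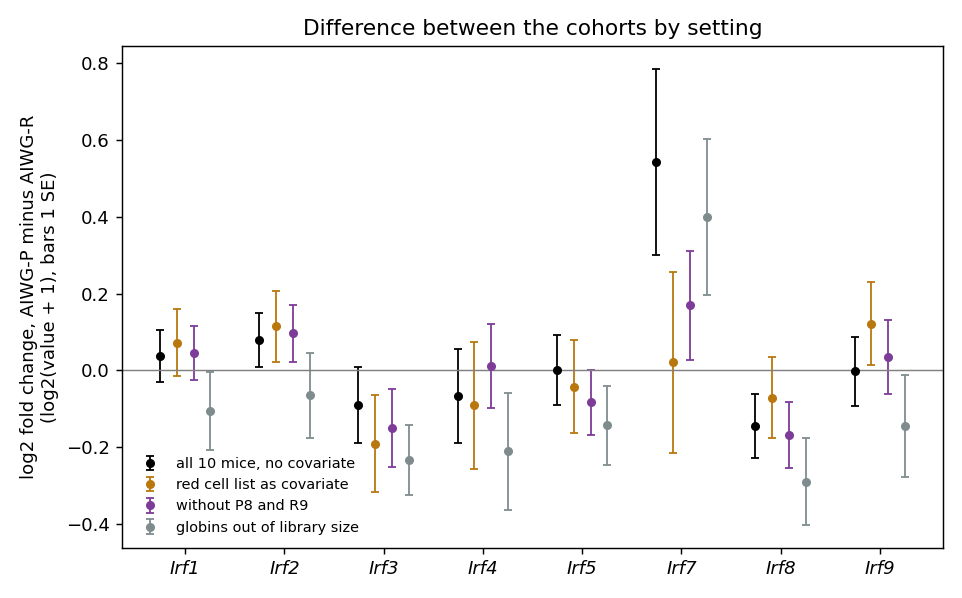
Difference between the cohorts for each member, AIWG-P minus AIWG-R on the log2(value + 1) scale, with 1 SE, in all 10 mice, with the red cell mean in the fit, without P8 and R9, and with library sizes computed without globins. For Irf7 the values are 0.54, 0.02, 0.17 and 0.40; in the last of these the median of all genes lies at -0.15, and all members but Irf7 are below 0.

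The genes that act with the members were examined next, from 6 lists of 130 genes of which 118 were measured. Of these, 5 (4.24%) were higher in AIWG-P and 1 (0.85%) lower, against 4.06% and 3.23% of all genes, and the median log2 difference was 0.00, against -0.01 for all genes. The called genes were Isg15, Rsad2, Isg20, Ifitm3 and Jund on the higher side and Nlrc5 on the lower side. With the red cell mean in the fit, 0 of the 118 passed, and without P8 and R9 only Isg15 and Rsad2 did. The genes lost their calls in the red cell fit to different degrees. The log2 differences of the 5 higher genes went from 0.33 to 0.75 in the main fit to -0.05 (Isg20) to 0.21 (Ifitm3). That of Nlrc5 went from -0.33 to -0.29, where Nlrc5 missed the fold threshold but not the threshold on the unadjusted p.

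Upstream of the members, none of 6 receptor genes, 15 sensors and adaptors or 16 kinases and ligases was called, beside 7.29% of all genes. Lists this short would hold few calls at that share, so this is not a result about them. Over all genes tested, 48.4% had a log2 difference above 0. Of 6 interferon receptor genes, 4 had a higher and 2 a lower mean log2 value in AIWG-P, led by Ifngr2, a chain of the interferon gamma receptor (0.12, exact permutation p = 0.230), and Ifnar2, a chain of the type I receptor (0.09, exact p = 0.286). Ifnb1, Ifng, Ifna4, Ifna2 and Ifnk are not among the genes of the table. Of 15 sensors and adaptors 12 were below 0, with a median of -0.09, and the smallest p belonged to the adaptor Myd88, at 0.19 (exact permutation p = 0.127). Tlr9, the endosomal DNA sensor upstream of Irf7, was at -0.37 (95% interval -0.92 to 0.18, exact permutation p = 0.286), with 91.1 in P8 and 202.9 to 314.1 in the other mice. Of 16 kinases and ligases 13 were below 0, with a median of -0.09. Ikbkb, the kinase that phosphorylates Irf5, was 1068 ± 128 in AIWG-P and 1278 ± 81.6 in AIWG-R (SD, n = 5), a log2 difference of -0.26 (exact permutation p = 0.0159, limma adjusted p = 0.341) that misses the fold threshold. Ikbke, which with Tbk1 phosphorylates Irf3 and Irf7, was at -0.21 (exact permutation p = 0.0952).

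Among 33 type I interferon target genes, 4 (12.1%) were higher in AIWG-P and 0 lower, beside 4.06% of all genes, and 23 of the 33 had a positive log2 difference, with a median of 0.07. Isg15 rose most, from 990.1 ± 353 in AIWG-R to 1633 ± 499 in AIWG-P (SD, n = 5), a log2 difference of 0.75 (SE 0.25, exact permutation p = 0.0238, limma adjusted p = 0.327). Rsad2, the antiviral enzyme viperin, was 12928, 13004, 12873, 8523 and 12126 in P1, P3, P5, P7 and P8, and 7071, 8731, 7715, 11211 and 4455 in R1, R2, R4, R8 and R9. P7 lay below R2 and R8, and the other AIWG-P mice lay above every AIWG-R mouse, and the log2 difference was 0.65 (SE 0.21, exact permutation p = 0.0238, limma adjusted p = 0.325). Isg20, an exonuclease that degrades viral RNA, was at 0.57 (SE 0.24, exact permutation p = 0.0952), and Ifitm3, which blocks virus entry at the membrane, at 0.33 (SE 0.14, exact p = 0.0635). Isg20 and Ifitm3, like Irf7, passed the limma call but had an exact p above 0.05. Isg20 lost its call without P1, P8, R4 or R9, and Ifitm3 without P7, P8, R1, R8 or R9. Isg20 values were 7287 to 17851 in AIWG-R, and with the red cell mean in the fit its log2 difference was -0.05. In that fit Isg15 was at 0.13 and Rsad2 at 0.09. Under quantile normalization Rsad2, Isg20 and Ifitm3 lost their calls, at 0.36, 0.23 and 0.32.

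Not all targets followed Irf7. Of the 33 type I target genes, 19 had a positive r with it over the 10 mice and 7 had r above 0.7, with a median r of 0.36, against 6.70% of all genes above 0.7 and a median r of -0.01. The same list had a median r of 0.38 with Irf2 and 0.33 with Irf9, and -0.36 with Irf3.

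Of 29 Irf1 and interferon gamma target genes, which include the guanylate-binding proteins and the antigen-processing genes, 0 were higher and 1 (3.45%) was lower in AIWG-P, near the 3.23% of all genes that were lower, with a median log2 difference of 0.06. The gene was Nlrc5, the transactivator of MHC class I genes. It was 570.5, 524.8, 584.5, 487.0 and 460.3 in P1, P3, P5, P7 and P8, and 621.2, 659.7, 707.3, 616.1 and 694.8 in R1, R2, R4, R8 and R9, so that the cohorts did not overlap. The log2 difference was -0.33 (SE 0.086, exact permutation p = 0.00794, the smallest possible here, limma adjusted p = 0.325), and it was the only one of the 118 pathway genes (0.85%) whose cohorts did not overlap, against 2.55% of all genes. At a fold of 0.795 it sits close to the fold threshold and lost the call without P7, P8, R4 or R9, when the log2 difference was -0.31 to -0.29. Of the 19 partner transcription factors 1 (5.26%) was higher, near the 4.06% of all genes. This was Jund, an AP-1 subunit, at 2003 ± 176 in AIWG-P and 1555 ± 349 in AIWG-R (SD, n = 5), a log2 difference of 0.39 (SE 0.14, exact permutation p = 0.0317, limma adjusted p = 0.343). Without R9 the value was 0.26 and the call was lost.

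**Figure D5:**
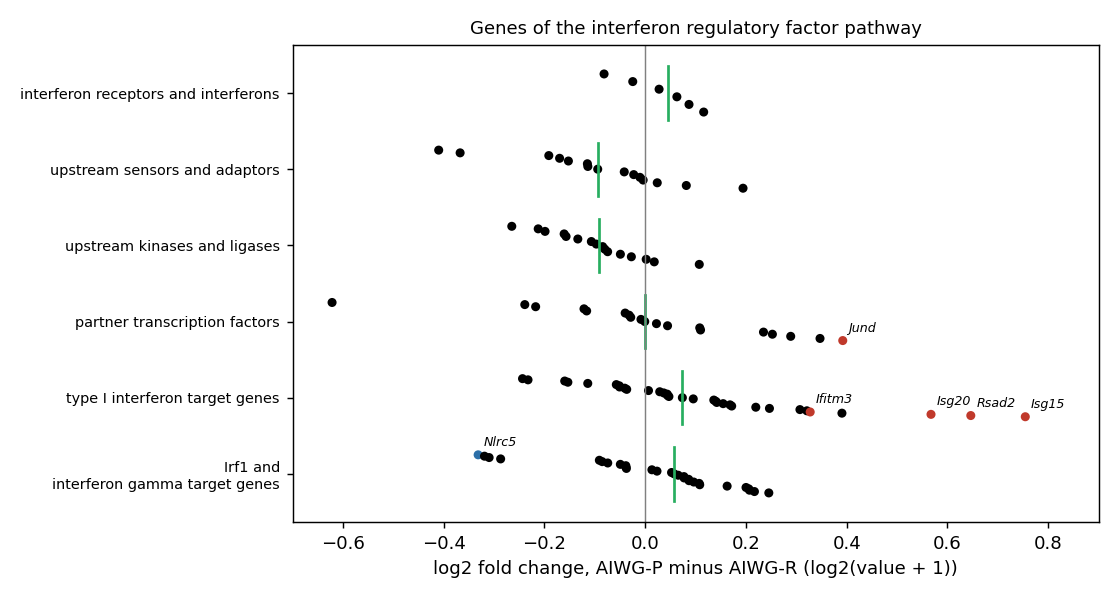
Log2 difference, AIWG-P minus AIWG-R, of each measured gene in 6 lists of genes that act with the members, 1 point per gene, with the median of each list as a green line. Named points passed both thresholds (red higher, blue lower in AIWG-P). They are 5 and 1 of 118 genes.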

How the data were processed

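Whole-blood RNA of 10 mice was sequenced from TruSeq libraries on an Illumina NovaSeq instrument. The authors aligned the reads to mouse transcripts with Bowtie2 and obtained counts per gene with RSEM, and the submitters' processing notes also name limma and the mm9 build (versions: not given in the sources used here). Per gene and mouse, 1 signal value was deposited, after a normalization by the authors whose method is not stated. The authors' own means, fold changes, p-values and q-values in the table were not used.

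Values were analysed as log2(value + 1) with limma 3.58.1 in R 4.3.3 (lmFit and eBayes with a mean-variance trend, no covariate), in genes above 1 in at least 5 of 10 mice, which removed 2 genes, with Benjamini-Hochberg adjustment over all 10429 genes. A call required an unadjusted p below 0.05 and a ratio of the cohorts more than 25% above 1, or below the inverse. Fold changes are on the log2(value + 1) scale. An exact permutation test (two-sided) was run on single genes, and correlations by 100000 permutations. The fit was also run on simulated data with independent noise for each gene, which does not cover variation that genes share across these mice. The p-values of the cohort comparisons set the difference against the spread between samples. With 1 blood sample per mouse, differences between mice and between libraries cannot be told apart in that spread.

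The 8 members and the gene lists were chosen with earlier results of these data known. All 8 members, every list gene past both thresholds (otherwise the 2 with the smallest p) and the 3 genes most like each member are named. Genes were matched by Entrez ID to RefSeq (10368 matched, all 8 members among them), from which promoter windows were read. The written design held the exact tests of the Irf members only. The exact tests of pathway genes were added after their limma values were known. The relations of members to principal components, globin percentage and step totals (8 members by 6 measures), the ratios within a mouse, the mouse numbers noted for Irf3, the choice of the Isg15 promoter and the values of Irf7 with Irf8 were likewise chosen after values had been seen, and are descriptions. What the label number stands for (3 for P7, P8 and R1, otherwise 4) is not stated. The values of a mouse were whole multiples of 1 step, but the recovery of reads from them did not meet the criterion set for count-based tests, which were not run. No protein sequences were used here. Figures were drawn with matplotlib 3.10.9 in Python 3.11.15.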

Additional observations from a re-analysis of the deposited data

How the results depend on the processing

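Irf7 stayed higher in AIWG-P under every alternative tried. Without the fold threshold the fit is the same, so its call could not be lost. The replicate block rests on the few mice whose numbers occur in both cohorts and is described below. Otherwise the log2 difference of Irf7 passed both thresholds only with a pseudocount of 0.1, no filter, a filter on a mean above 50 and trimmed-mean centring. It missed them under quantile normalization (0.48), globins left out of the library size (0.40), no mean-variance trend (0.54), a covariate for the label number (0.53), the mice with label number 4 alone (0.41), a covariate for the red cell list (0.021), leaving out P8 and R9 together (0.17) and array weights (0.34), and under each of these 8 the count of Irf members higher in AIWG-P was 0. Leaving out 1 mouse at a time gave 0.35 (without R9) to 0.68 (without R8) for Irf7, 0.02 to 0.06 for Irf1, 0.05 to 0.11 for Irf2, -0.14 to -0.04 for Irf3, -0.14 to 0.023 for Irf4, -0.050 to 0.061 for Irf5, -0.19 to -0.09 for Irf8 and -0.060 to 0.036 for Irf9, and 0 to 1 members higher. Members with differences near 0 changed sign: Irf5 and Irf9 under quantile normalization (-0.0092 and 0.0016), with the label number covariate (-0.021 and 0.00037) and with the red cell covariate (-0.043 and 0.12), Irf4 and Irf5 among the mice with label number 4 (0.092 and -0.078), Irf4, Irf5 and Irf9 without P8 and R9 (0.011, -0.083 and 0.034), and Irf5 under array weights (-0.055). Globins left out of the library size moved the median of all genes to -0.15, and Irf1, Irf2 and Irf5 to -0.11, -0.065 and -0.14. The cause of these changes was not tested.

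All genes higher and lower in AIWG-P numbered 423 and 337. They were 162 and 1212 with globins left out, 702 and 638 with no fold threshold, and 178 and 188 without P8 and R9. The lower count was 165 among the mice with label number 4, and the higher count was 136 with the red cell covariate. Leaving out 1 mouse gave 265 (without R9) to 563 (without P3) and 228 (without P8) to 637 (without P3). The 118 pathway genes, 5 higher and 1 lower, gave 3 and 8 with globins left out, 0 and 0 with the red cell list, 2 and 0 both without P8 and R9 and under array weights, 11 and 4 with no fold threshold, 2 to 9 and 0 to 5 when 1 mouse was left out, 2 lower under quantile normalization, and 0 lower with the label number covariate or label number 4 alone. The mouse numbers 1 and 8 occur in both cohorts but name mice within a cohort. The deviations of same-numbered mice correlated at 0.12 and 0.33. With the mouse number as a replicate block, which rests on these 4 mice, Irf7 was at 0.69 (limma adjusted p = 0.00371, against 0.287 to 0.997 under the other alternatives), Irf9 at 0.027, all genes at 770 higher and 1006 lower, and pathway genes at 8 and 12. In the block fit 422 of 10429 genes had a limma adjusted p under 0.05, against 0 in the main fit. A small adjusted p there is therefore not particular to Irf7. The planned edgeR and DESeq2 alternatives were not run.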

Other observations

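Irf8 and Irf7 were opposed within the AIWG-R mice, with Irf8 at 936.1 in R8, where Irf7 was highest (1784), and 985.8 in R9, where Irf7 was lowest (721.8). With 5 mice no correlation is given for a cohort alone. Over the 10 mice the Pearson r of the 2 genes was -0.33 (permutation p = 0.322) and Spearman's rho -0.70 (permutation p = 0.0311), with adjusted p of 0.716 and 0.218 over the 28 pairs of members. The r was -0.57 without R9 and P8 and -0.02 with the cohort means removed, and in AIWG-P the mouse with the highest Irf7, P8 (2965), had a high Irf8 of 947.4. Irf8 also had r = -0.74 with the total of whole steps per mouse, and Irf9 had -0.61.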
